A study of Homo sapiens with 18 samples.

Results

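The zinc finger genes of human chromosome 19 were followed here over the 6 groups of a study of the histone demethylase PHF8 in THP-1 cells. Members were the rows of the deposited tables that lie on chromosome 19, are named ZNF followed by a number, and averaged at least 1 CPM (reads of the gene per 1000000 reads of the library) over the 18 libraries. This rule found 218 members among 249 such rows of chromosome 19 and 19784 rows in all. They were thus chosen by their mean level over all libraries. Just inside the threshold lay ZNF98 at 1.431 CPM, ZNF491 at 1.31 CPM and ZNF625 at 1.091 CPM, and just outside it ZNF607 at 0.9864 CPM, ZNF541 at 0.927 CPM and ZNF233 at 0.7947 CPM. All 218 members also passed the filter on low values in both experiments below.

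THP-1 is an established human monocytic leukaemia line that carries the MLL-AF9 fusion, and all 18 libraries come from it. In the first experiment 4 libraries each came from unmodified cells (wt), from cells with added PHF8 (PHF8), and from cells with the PHF8 variant F279S (F279S), a change in the catalytic domain; no treatment is named for these. In the second experiment 2 libraries each came from cells labelled ERAA (genotype PHF8AA), ERDD (genotype PHF8DD) and ERPHF8 (genotype PHF8), all at day 3. ERAA and ERDD are labelled as treated with 4-OHT (4-hydroxytamoxifen, a ligand of the oestrogen receptor), stated as 100 nM, to induce the variant, while no treatment is named for ERPHF8. In comparisons with ERPHF8 the genotype and the 4-OHT label therefore cannot be told apart. The labels do not spell out AA and DD, do not say whether a line is 1 clone, and do not say whether replicates are separate cultures, so p-values measure only the spread between these libraries.

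Most zinc finger genes of chromosome 19 arose by repeated tandem duplication and sit in clusters of related neighbours. Many encode KRAB zinc finger proteins, which bind DNA (often transposable elements) through their C2H2 fingers and recruit the corepressor TRIM28, which in turn brings the H3K9 methyltransferase SETDB1 and HP1 proteins. The bodies of many of these genes themselves carry H3K9me3, and ZNF274 is known to bring SETDB1 to them. PHF8 removes repressive methyl groups from histone H3 lysine 9, chiefly the dimethyl mark, and from H4 lysine 20.

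Chaining ZNF rows of chromosome 19 that lie at most 1 Mb apart, whatever their level, gave 16 clusters, numbered here from the end of the short arm. Cluster 5, beside the centromere (hg38, chromosome 19, 19668796 to 24129961), held 29 members. Cluster 15 (51571298 to 53580269) held 34 members and cluster 16, at the end of the long arm (55476332 to 58481230), held 53. Clusters 2, 3, 9 and 12 held 15, 25, 22 and 21 members, cluster 1 held 5, and clusters 4, 6 to 8, 10, 11, 13 and 14 held between 1 and 4 each. Per kilobase of gene span, the median member level was 0.332 RPKM in cluster 5, 0.271 RPKM in cluster 9 and 0.984 RPKM in cluster 16. The members with the highest RPKM in their clusters were ZNF146 (5.74, cluster 9), ZNF581 (4.5, cluster 16), ZNF414 (4.14, cluster 2), ZNF296 (2.94, cluster 12), ZNF700 (2.12, cluster 3), ZNF761 (1.9, cluster 15), ZNF101 (1.71, cluster 5) and ZNF556 (0.873, cluster 1). Reads were counted over the whole gene span, and 95 of the 218 members overlap another row, so their reads cannot be told apart from those of the neighbour; no label or file header says how reads that match several of these near-identical genes were treated.

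The promoters divide along the same positions. RefSeq promoter windows (GRCh38.p14, 250 bases before to 50 after the annotated start) matched 193 of the 218 members by symbol. The 8 letters CCAATCAG, a CCAAT box with its flank that was chosen after the windows had been read, occurred on either strand in 51 of these 193 (26.4%), against 4.16% of all 27305 windows, 5.49% of the 10248 windows of genes at 1 CPM or more and 11.8% of 187 windows of ZNF genes elsewhere. They were in 24 of 24 windows of cluster 5, 20 of 23 of cluster 3 and 4 of 5 of cluster 1, and in 0 of 49 of cluster 16, 0 of 21 of cluster 9 and 0 of 13 of cluster 2. The letters CCGGAAGT, the core that ETS family factors bind, showed another distribution: 41 of the 193 windows had them (21.2%, against 4.44% of all windows, 8.61% of those of expressed genes and 16% of those of other ZNF genes). Of these 41, cluster 16 held 26 of its 49 windows (53.1%), whereas clusters 1, 2 and 5 held 0. No window held both. Exact matches to the NRF1, YY1, ZNF143 and CREB elements were in 4, 2, 2 and 7 of the 193 windows. Such matches describe letters and do not show binding.

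Promoter windows of 7 members are shown because they stand for windows with CCAATCAG (ZNF257, ZNF486 and ZNF700), with CCGGAAGT (ZNF865 and ZNF787) and with neither (ZNF880 and ZNF528). ZNF700 has the highest RPKM of cluster 3, and the others are among the largest changes described below. The windows read 5′ to 3′ on the gene's strand, and capitals mark CCAATCAG or CCGGAAGT on either strand. ZNF257 (chr19:22052234-22052533, plus strand) and ZNF486 (chr19:20166964-20167263, plus) lie in cluster 5, ZNF700 (chr19:11924857-11925156, plus) in cluster 3, ZNF880 (chr19:52369673-52369972, plus) and ZNF528 (chr19:52397599-52397898, plus) in cluster 15, and ZNF865 (chr19:55605397-55605696, plus) and ZNF787 (chr19:56121246-56121545, minus) in cluster 16.
ZNF257: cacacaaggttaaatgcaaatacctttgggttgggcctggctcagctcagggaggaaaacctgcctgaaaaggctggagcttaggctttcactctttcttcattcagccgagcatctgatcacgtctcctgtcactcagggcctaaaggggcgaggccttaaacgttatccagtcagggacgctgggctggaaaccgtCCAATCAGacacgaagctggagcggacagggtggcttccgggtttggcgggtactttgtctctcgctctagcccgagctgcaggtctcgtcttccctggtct
ZNF486: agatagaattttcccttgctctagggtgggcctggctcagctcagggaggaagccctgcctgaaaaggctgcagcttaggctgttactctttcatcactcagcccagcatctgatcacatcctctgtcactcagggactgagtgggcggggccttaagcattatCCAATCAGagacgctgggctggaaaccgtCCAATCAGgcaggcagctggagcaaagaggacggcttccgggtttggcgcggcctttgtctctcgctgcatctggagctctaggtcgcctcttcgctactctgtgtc
ZNF700: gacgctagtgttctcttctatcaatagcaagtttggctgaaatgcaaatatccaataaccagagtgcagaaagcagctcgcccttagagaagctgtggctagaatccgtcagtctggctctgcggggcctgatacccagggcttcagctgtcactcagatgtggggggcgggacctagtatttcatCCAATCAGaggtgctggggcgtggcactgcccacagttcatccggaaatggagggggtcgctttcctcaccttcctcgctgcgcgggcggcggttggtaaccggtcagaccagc
ZNF880: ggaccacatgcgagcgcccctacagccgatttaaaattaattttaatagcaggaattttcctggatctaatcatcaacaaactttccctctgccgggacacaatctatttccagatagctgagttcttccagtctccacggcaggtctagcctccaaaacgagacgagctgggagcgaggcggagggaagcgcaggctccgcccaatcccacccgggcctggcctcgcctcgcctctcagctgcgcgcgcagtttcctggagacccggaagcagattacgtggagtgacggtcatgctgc
ZNF528: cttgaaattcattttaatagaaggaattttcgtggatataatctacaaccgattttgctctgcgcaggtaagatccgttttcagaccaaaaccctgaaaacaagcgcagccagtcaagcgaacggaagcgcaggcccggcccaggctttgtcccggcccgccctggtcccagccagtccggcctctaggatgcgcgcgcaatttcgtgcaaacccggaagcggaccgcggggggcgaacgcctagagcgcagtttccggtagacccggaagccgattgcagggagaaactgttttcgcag
ZNF865: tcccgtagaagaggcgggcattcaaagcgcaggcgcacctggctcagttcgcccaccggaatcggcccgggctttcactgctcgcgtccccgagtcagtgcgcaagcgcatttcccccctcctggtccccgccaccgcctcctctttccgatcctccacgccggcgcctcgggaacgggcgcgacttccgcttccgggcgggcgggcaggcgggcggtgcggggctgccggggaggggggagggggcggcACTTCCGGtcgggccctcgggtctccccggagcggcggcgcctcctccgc
ZNF787: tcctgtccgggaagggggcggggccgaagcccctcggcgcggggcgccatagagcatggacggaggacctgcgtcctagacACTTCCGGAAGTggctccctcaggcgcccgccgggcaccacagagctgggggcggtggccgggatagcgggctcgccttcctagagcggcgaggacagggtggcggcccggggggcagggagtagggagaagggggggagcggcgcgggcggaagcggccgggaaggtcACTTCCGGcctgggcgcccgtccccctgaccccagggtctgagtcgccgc
The windows of ZNF257 and ZNF486 shared 238 of 305 aligned columns (78%), those of the neighbours ZNF528 and ZNF880 shared 52.1%, and those of ZNF257 and ZNF787 47.7%. ZNF486 carries the CCAAT element 2 times and ZNF257 1 time. In ZNF787 the run ACTTCCGGAAGT holds CCGGAAGT on both strands, and a further match lies nearer the start.

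Total depth ran from 18239474 to 51517469 reads per library, at which 3 reads correspond to between 0.0582 and 0.164 CPM. PHF8 was measured at 45.5 to 54 CPM in wt, 1900 to 2100 CPM in PHF8, 5000 to 5780 CPM in F279S and 1100 to 2310 CPM in the second experiment, where every line carries added PHF8 and no unmodified control was included. All 8 monocytic markers looked for were detected (SPI1 at 225 CPM or more, LYZ at 172 CPM or more, CSF1R at 113 CPM or more, CD14 at 2.25 CPM or more), while HBB, CD3D, CD3E, MS4A1, EPCAM and KRT18 stayed at or below 0.379 CPM; the B-cell gene PAX5 was measured at 2.55 to 15.6 CPM. In the first experiment libraries 1 and 2 of each group resembled each other and stood apart from libraries 3 and 4. The chi-square per gene was 1.95 to 11.8 between libraries of the same pair and 26.6 to 75.8 across the pairs, in all 3 groups. The labels name no batch, so these are called library pairs here.

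Across the 218 members, the mean log2(CPM + 0.5) was 3.50, 3.50, 3.88 and 3.71 in wt libraries 1 to 4, 3.44, 3.33, 3.76 and 3.65 in F279S, and 3.82, 3.81, 3.86 and 3.77 in PHF8. The 4 PHF8 libraries lay close together and inside the upper part of the wt range, and wt and F279S were low in libraries 1 and 2. In the second experiment the means were 3.88 and 3.75 in ERAA, 3.59 and 3.55 in ERDD, and 3.85 and 3.89 in ERPHF8, so ERDD lay below both other groups. The median over all 13554 genes at 1 CPM or more stayed between 5.03 and 5.15 in all libraries. In bulk RNA, fewer cells that express a gene and less RNA per cell cannot be told apart.

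**Figure D1:**
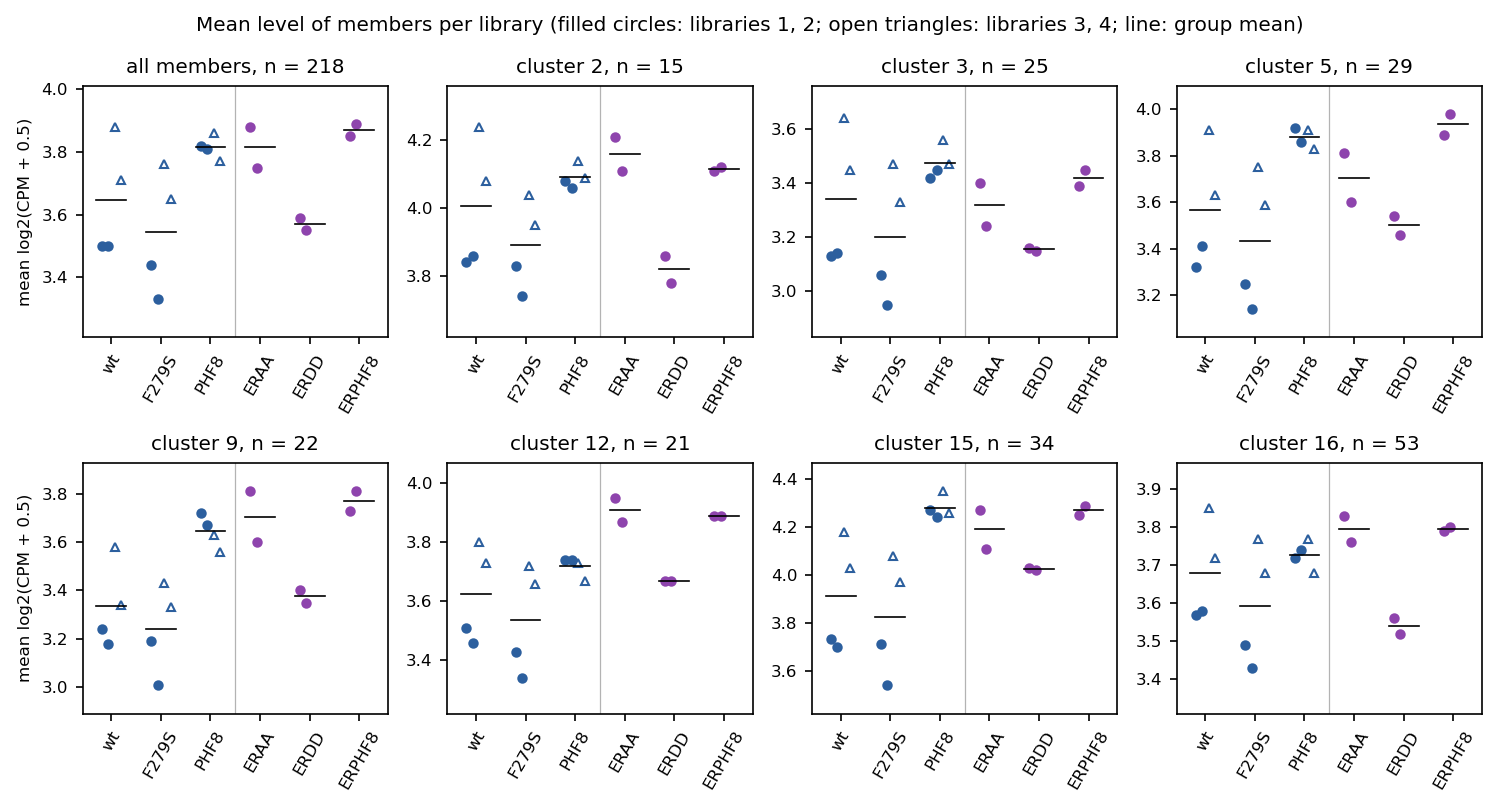
Mean log2(CPM + 0.5) of the members in each library (y axis, a separate range in each panel) by group (x axis), for all members and for the 7 clusters of 15 or more; circles are libraries 1 and 2, triangles libraries 3 and 4, and lines group means. The PHF8 libraries of cluster 5 sit between 3.83 and 3.92, while wt runs from 3.32 to 3.91 and ERDD from 3.46 to 3.54.

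The comparison of PHF8 with wt asks what added demethylase changed. Of the 218 members, 37 were higher (17%) and 6 lower (2.75%) at an adjusted p below 0.05, against 12.7% higher and 8.28% lower among all 13683 genes tested. The median change of the members was 0.14 on the log2 scale and that of all genes 0.01; 155 of the 218 members had a positive value. ZNF genes of other chromosomes had 21 higher and 17 lower of 227, and other chromosome 19 genes 38 higher and 99 lower of 849 (4.48% and 11.7%). With replicate number as a block the members' counts were 70 higher and 14 lower, against 22.4% and 19% of all genes. Without PHF8 library 1, or without wt library 1, 27 members passed in place of 43. Under quantile normalization the median fell to 0.06, with 35 higher and 10 lower. Of the members called there 77.8% were higher, as against 52.2% of all genes called.

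By cluster, cluster 15 had 9 higher and 0 lower of 34 (median 0.30), cluster 5 had 8 and 0 of 29 (median 0.23), cluster 9 had 7 and 0 of 22 (median 0.27), and cluster 16 had 6 and 4 of 53 (median 0.0031). Clusters 2 and 3 had 2 and 3 higher and 0 lower, and cluster 12 had 2 higher and 1 lower. A difference between clusters was not tested.

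ZNF257, a KRAB zinc finger gene of cluster 5 (ENSG00000197134.11, chromosome 19, 22052452 to 22091480, plus strand), had the largest rise. It was measured at 1.00, 1.34, 1.49 and 1.01 CPM in wt libraries 1 to 4, at 0.779, 1.64, 1.65 and 1.15 CPM in F279S, and at 3.55, 3.45, 3.06 and 3.11 CPM in PHF8. All 4 PHF8 libraries were above all 8 others. The log2 change against wt was 1.16 (SE 0.18, adjusted p = 0.00077) and was 1.27 in libraries 1 and 2 and 1.05 in libraries 3 and 4. ZNF98, another member of cluster 5, had means of 1.05 ± 0.508 CPM in wt and 2.22 ± 0.124 CPM in PHF8 (SD, n = 4; log2 change 0.87, adjusted p = 0.022), but did not pass in libraries 3 and 4 alone (0.67, adjusted p = 0.086) or without PHF8 library 1 or 2 or wt library 1 or 4. ZNF878 in cluster 3 rose from 1.89 ± 0.286 to 3.93 ± 0.164 CPM (SD, n = 4; log2 change 0.90, SE 0.13, adjusted p = 0.00049) and shares reads with an overlapping row.

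ZNF528, ZNF610 and ZNF880 are KRAB zinc finger genes that follow each other in cluster 15 (52336245 to 52418412, all on the plus strand). ZNF528 was measured at 3.66, 3.92, 7.83 and 6.25 CPM in wt and at 12.6, 11.3, 12.6 and 11.6 CPM in PHF8. The PHF8 libraries did not overlap wt, whose libraries 3 and 4 lay higher than 1 and 2. Its log2 change was 1.14 (SE 0.25, adjusted p = 0.0059), being 1.54 in libraries 1 and 2 and 0.74 in libraries 3 and 4, and these differed (difference 0.80, adjusted p = 0.0076). Its neighbour ZNF610 was at 3, 2.94, 6.44 and 4.76 CPM in wt and 6.18, 7.36, 7.63 and 8.22 CPM in PHF8, so that wt library 3 reached into the PHF8 range. ZNF880 was at 1.20, 0.773, 2.60 and 2.45 CPM in wt and 3.14, 4.07, 3.62 and 3.26 CPM in PHF8. Neither ZNF610 (log2 change 0.77, adjusted p = 0.091) nor ZNF880 (0.92, adjusted p = 0.062) passed against wt.

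In cluster 9, ZNF829 rose from 1.28 ± 0.647 to 2.63 ± 0.507 CPM (SD, n = 4; log2 change 0.87, adjusted p = 0.026), and did not pass in libraries 3 and 4 alone (0.48, adjusted p = 0.13) or without PHF8 library 1 or 3 or wt library 1 or 2. ZNF837 in cluster 16, a zinc finger gene with a GC-rich transcript, rose from 2.60 ± 0.879 to 5.00 ± 0.61 CPM (SD, n = 4; log2 change 0.87, SE 0.21, adjusted p = 0.012).

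The members that fell were ZNF77 of cluster 1, ZNF428 of cluster 12, and ZNF579, ZNF865, ZNF787 and ZNF324B of cluster 16. ZNF428, ZNF579, ZNF865 and ZNF787 encode zinc finger proteins without a KRAB domain, whereas ZNF77 and ZNF324B carry one. ZNF865 (ENSG00000261221.3, 55605405 to 55617269, plus strand) was at 59.4, 59.9, 63.9 and 53.9 CPM in wt, 47.3, 47.4, 51.8 and 51.5 CPM in F279S, and 41.0, 43.1, 43.8 and 43.4 CPM in PHF8. The groups followed the order wt, F279S, PHF8 without overlap. Its log2 change was −0.46 against wt (SE 0.06, adjusted p = 0.00035), and −0.21 against F279S (SE 0.06, adjusted p = 0.041, lost when any of 7 of the 8 libraries was left out). ZNF428, which overlaps SRRM5, fell from 27.7 ± 4.82 to 18.4 ± 1.82 CPM (SD, n = 4; log2 change −0.57, adjusted p = 0.0093). ZNF579 fell from 17.5 ± 1.37 to 12.6 ± 1.01 CPM, ZNF787 from 67.9 ± 5.72 to 54.9 ± 2.23 CPM, ZNF324B from 9.59 ± 0.941 to 7.16 ± 0.698 CPM and ZNF77 from 6.17 ± 0.55 to 4.41 ± 0.375 CPM (SD, n = 4), with log2 changes between −0.46 and −0.30. The calls of ZNF787 (also without wt library 2 or PHF8 library 4) and ZNF324B (also without PHF8 library 1) were lost without wt library 1, and ZNF324B did not pass in libraries 3 and 4 alone (log2 change −0.25, adjusted p = 0.13).

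The catalytic variant was next compared with wt. No member passed in F279S against wt (0 of 218, limma), where 0.0146% of all genes were higher and 0% lower; the voom fit on recovered reads also gave 0 members. At an unadjusted p below 0.05 there were 6 members, all lower (2.75%, against 6.37% of all genes). The median member was at −0.10 and 48 of 218 had a positive value; ZNF genes of other chromosomes had a like median of −0.10. In libraries 1 and 2 alone, 30 members were lower and 0 higher, against 6.75% and 7.45% of all genes. In libraries 3 and 4 alone 0 members passed (0.0439% of all genes in each direction). With the replicate block 1 member was lower and 0 higher, against 0.848% and 1.33% of all genes. A count of 0 does not show that the members were at the same level in both groups.

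PHF8 against F279S compares 2 lines with added PHF8 of different catalytic state; PHF8 itself was at 2020 ± 89.6 CPM in PHF8 and 5380 ± 320 CPM in F279S (SD, n = 4). Members were higher in 53 cases (24.3%) and lower in 5 (2.29%), against 12.2% and 7.92% of all genes. The median change was 0.24 and 182 of 218 values were positive. Of the ZNF genes elsewhere 33 were higher and 7 lower of 227 (median 0.11), and of the other genes of chromosome 19, 38 and 99 of 849. The replicate block gave 105 higher and 10 lower, against 23.2% and 17.8%. The 58 calls became 30 without F279S library 2, 31 without PHF8 library 1, 34 without PHF8 library 2 and 35 without PHF8 library 3. Under quantile normalization the median was 0.16.

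By position, cluster 5 had 13 higher and 0 lower of 29 (median 0.47, 28 of 29 positive), cluster 15 had 14 and 0 of 34 (median 0.37, 33 positive), cluster 9 had 10 and 0 of 22 (median 0.37), cluster 3 had 5 and 0 of 25 (median 0.26), and cluster 16 had 5 and 3 of 53 (median 0.13). Cluster 5 libraries had mean log2 levels of 3.25, 3.14, 3.75 and 3.59 in F279S and 3.92, 3.86, 3.91 and 3.83 in PHF8. The groups did not overlap. In cluster 16 they did, with 3.49, 3.43, 3.77 and 3.68 in F279S against 3.72, 3.74, 3.77 and 3.68 in PHF8.

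ZNF730 of cluster 5 (ENSG00000183850.13, 23075210 to 23147219, plus strand) was at 9.99, 8.50, 18.9 and 15.8 CPM in F279S, at 12, 11.6, 21.1 and 16 CPM in wt and at 22.5, 22.2, 24.9 and 24.2 CPM in PHF8. PHF8 lay above all other libraries of its experiment. The log2 change against F279S was 0.86 (SE 0.24, adjusted p = 0.024), 1.23 in libraries 1 and 2 and 0.49 in libraries 3 and 4, a difference that passed (0.74, adjusted p = 0.011). ZNF528 rose by 1.23 against F279S (SE 0.25, adjusted p = 0.0041), ZNF257 by 1.10 (adjusted p = 0.0011), ZNF610 by 1.04 (adjusted p = 0.028), ZNF880 by 0.99 (adjusted p = 0.048) and ZNF585B of cluster 9 by 0.84 (adjusted p = 0.018). ZNF880 did not pass with voom or with no filter on low values, and ZNF730, ZNF610 and ZNF880 each lost the call without F279S library 1 or 2. They also lost it without PHF8 library 1, 3 or 4 (ZNF730), without PHF8 library 2, 3 or 4 (ZNF610), and without F279S library 4 or any PHF8 library (ZNF880). The falls were ZNF428 (−0.51), ZNF77 (−0.43), ZNF579 (−0.28), ZNF787 (−0.25) and ZNF865 (−0.21), the last 3 with adjusted p from 0.029 to 0.047. ZNF428 lost the call without F279S library 2 or PHF8 library 3 or 4, ZNF579 without any library but F279S library 1 or PHF8 library 2, and ZNF787 without any 1 of the 8.

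**Figure D2:**
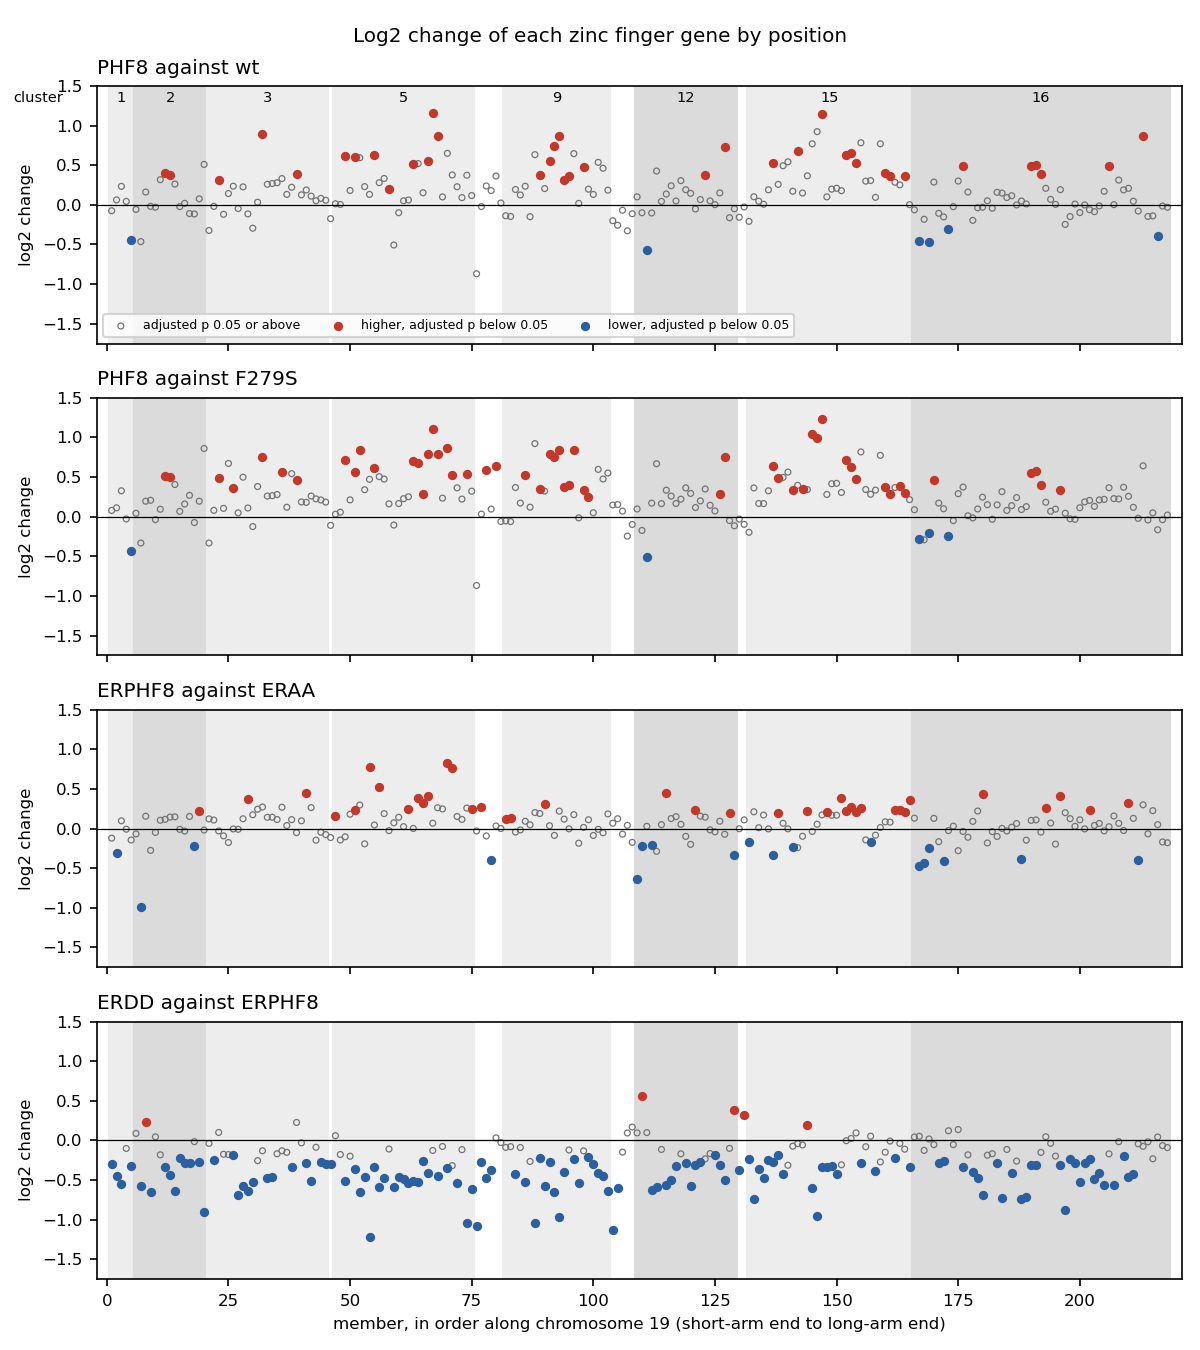
Log2 change of every member (y axis) in order along chromosome 19 (x axis) in 4 comparisons; red and blue points have an adjusted p below 0.05, open points do not, and shading marks clusters with 5 or more members. In PHF8 against F279S, the 13 called members of cluster 5 and 14 of cluster 15 are all red, and in ERDD against ERPHF8, 129 members are blue and 5 red.

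The size of these differences depended on the library pair. In libraries 1 and 2, PHF8 against wt gave 120 members higher (55%) and 15 lower (6.88%), against 27.3% and 24.1% of all genes. The member median was 0.28. In libraries 3 and 4 the same comparison gave 34 higher (15.6%) and 23 lower (10.6%), both under the background of 23.8% and 18.3%. The median there was 0.03, and 59.6% of the called members were higher, as against 56.5% of all genes called. PHF8 against F279S gave 146 and 8 in libraries 1 and 2 (67% and 3.67%, against 29.4% and 24.4%), with a median of 0.41. In libraries 3 and 4 it gave 41 and 9 (18.8% and 4.13%, against 20.3% and 14.9%), with a median of 0.11. Of those called members 82% were higher, as against 57.6% of all genes called. A test of the difference between the pairs was passed by 63 members for PHF8 against wt, 61 of them with the larger value in libraries 1 and 2 (14.4% of all genes passed in that direction), and by 51 for PHF8 against F279S, 50 in that direction (10.1%). For F279S against wt no member passed this test (0.519% and 0.38% of all genes in the 2 directions).

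Within wt, 107 members were higher and 18 lower in libraries 3 and 4 than in libraries 1 and 2, with a median difference of 0.29, against 32.3% and 28.1% of all genes. Within F279S these counts were 111 and 8 (median 0.29; 30.7% and 27%). Within PHF8 they were 3 and 10 (median −0.01; 14.1% and 13%). ZNF486 of cluster 5 shows the pattern: it was at 1.25, 1.49, 6.56 and 4.86 CPM in wt, 1.04, 1.04, 4.64 and 3.73 CPM in F279S and 3.14, 2.88, 3.72 and 3.17 CPM in PHF8. Its PHF8 libraries lay above the first pair of wt and below the second. ZNF274, in cluster 16 (ENSG00000171606.17, 58183029 to 58213562, plus strand), was at 36.5, 34.6, 51.2 and 48.4 CPM in wt, 29.9, 28.9, 47.3 and 45.8 CPM in F279S and 46.4, 47.4, 50.5 and 47.8 CPM in PHF8. TRIM28 ran the other way, at 612, 588, 430 and 431 CPM in wt, 565, 597, 426 and 423 CPM in F279S and 536, 567, 485 and 452 CPM in PHF8. Depth also differed: wt libraries 1 to 4 had 19972093, 19407360, 42253669 and 20783586 reads. F279S libraries had 23112384, 18239474, 50251704 and 51517469 reads, and PHF8 libraries 19735254, 24325962, 50317572 and 35636596 reads. What separates the library pairs was not tested.

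**Figure D3:**
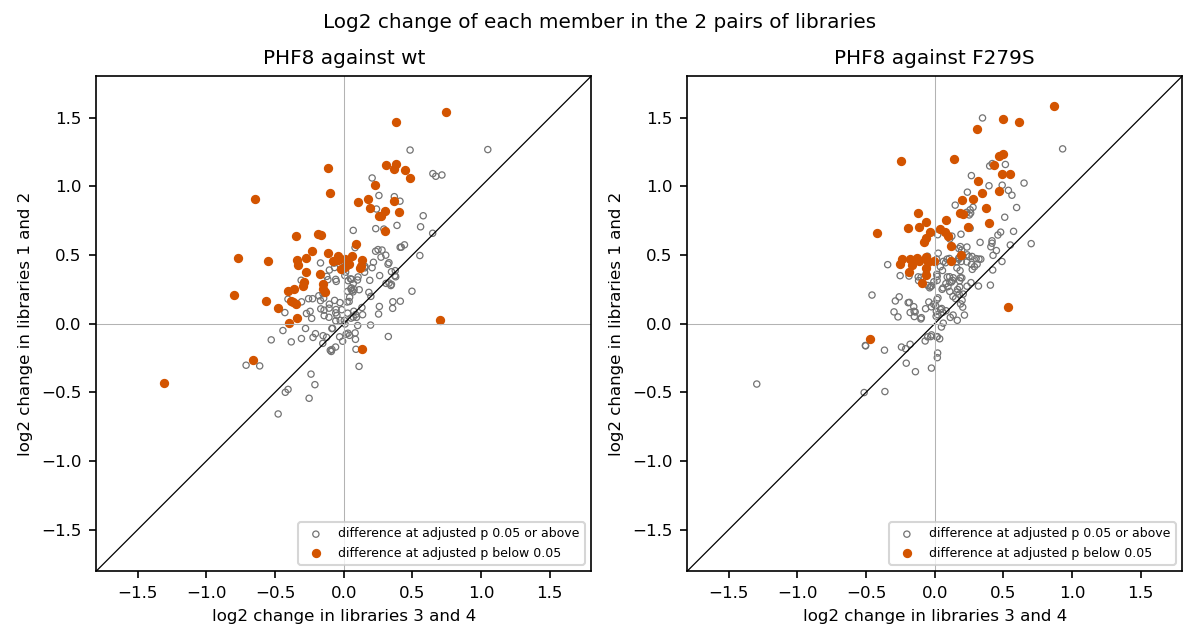
Log2 change of each member in libraries 1 and 2 (y axis) against libraries 3 and 4 (x axis) for PHF8 against wt and PHF8 against F279S; the line marks equal change and filled points passed the test of the difference. Most of the 63 and 51 filled points lie above the line.

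**Figure D4:**
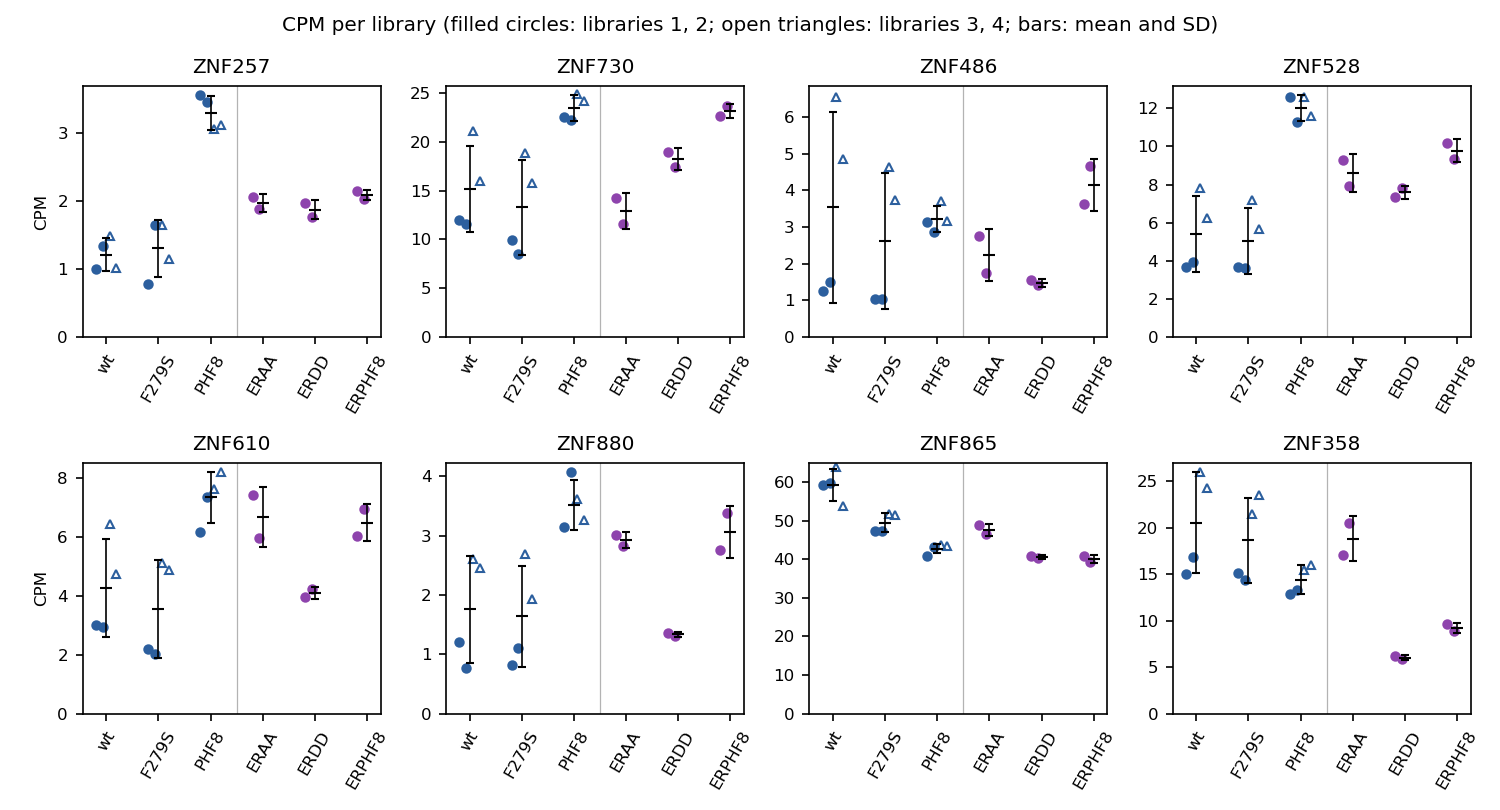
CPM per library (y axis) of 8 members by group (x axis), with bars for mean and SD (n = 4, or n = 2 in the second experiment). PHF8 libraries lie above wt and F279S for ZNF257, ZNF730 and ZNF528, while ZNF486 is high in libraries 3 and 4 of wt and F279S.

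In the second experiment ERDD stood below both other groups. PHF8 itself was also lowest there, at 1110 ± 14.8 CPM in ERDD, 2150 ± 219 CPM in ERAA and 1910 ± 8.51 CPM in ERPHF8 (SD, n = 2). Its log2 change in ERDD was −0.95 against ERAA (adjusted p = 9.2e-06) and −0.78 against ERPHF8 (adjusted p = 9.4e-05), and its part in the results below was not tested. ERDD against ERPHF8 had 129 members lower (59.2%) and 5 higher (2.29%), against 28% lower and 24.8% higher among all 13831 genes tested. The median was −0.28 and 25 of 218 values were positive. ZNF genes of other chromosomes had 109 lower and 20 higher of 227 (median −0.21), and other genes of chromosome 19 had 179 lower and 296 higher of 849 (median 0.06). Quantile normalization gave a median of −0.18 with 100 lower and 8 higher. Of the members called under it 7.41% were higher, as against 51.4% of all genes called. The 134 calls became 83 without ERDD library 1, 72 without ERDD library 2 and 77 without ERPHF8 library 2; these fits assume that the lone library left in a group varies like the others.

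Cluster 5 had 21 lower and 0 higher of 29 (median −0.46), cluster 9 had 16 and 0 of 22 (median −0.35), cluster 16 had 27 and 0 of 53 (median −0.23), cluster 15 had 18 and 1 of 34 (median −0.26), cluster 3 had 13 and 0 of 25, cluster 12 had 12 and 2 of 21 and cluster 2 had 10 and 1 of 15. ZNF486 was at 1.56 and 1.41 CPM in ERDD, 2.75 and 1.75 CPM in ERAA and 3.64 and 4.66 CPM in ERPHF8 (log2 change of ERDD against ERPHF8 −1.22, SE 0.19, adjusted p = 0.0013). ZNF546 of cluster 10 was at 5.09 and 5.89 CPM in ERDD, 14.6 and 9.75 CPM in ERAA and 11.8 and 13.4 CPM in ERPHF8. Its ERDD libraries lay below the other 4 (−1.13, adjusted p = 0.0012). ZNF536, a large gene without neighbours of its kind (30228290 to 30713538) that is known to restrain neuronal differentiation, was at 2.10 and 2.42 CPM in ERDD and at 5.34 and 5.32 CPM in ERPHF8 (−1.08, adjusted p = 0.00015). The largest rises were ZNF576 (0.56, adjusted p = 0.00055), which overlaps SRRM5, ZNF296 (0.39, adjusted p = 0.003) and ZNF473 (0.33, adjusted p = 0.0027), a factor of histone pre-mRNA processing whose row overlaps VRK3.

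ERDD and ERAA carry the same treatment label. Here 115 members were lower (52.8%) and 13 higher (5.96%), against 33.3% and 34.8% of all genes, with a median of −0.23. Among ZNF genes of other chromosomes 95 were lower and 41 higher of 227 (41.9% and 18.1%, median −0.12). Among other genes of chromosome 19, 345 were lower and 284 higher of 849 (40.6% and 33.5%, median −0.03). Quantile normalization moved the split of the members to 90 lower and 25 higher with a median of −0.15. Of the members called under it 21.7% were higher, as against 51.1% of all genes called. Without ERDD library 2, 83 members passed in place of 128. The 2 ERAA libraries were less alike than other pairs of this experiment, with a chi-square per gene of 15.4 against 1.86 in ERDD and 3.35 in ERPHF8, and member means of 3.88 and 3.75. Cluster 16 had 31 lower and 1 higher of 53 (median −0.25), cluster 15 had 16 and 5 of 34 (median −0.16) and cluster 5 had 14 and 3 of 29 (median −0.29).

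ZNF358 of cluster 2, a zinc finger gene without a KRAB domain (ENSG00000198816.6, 7515292 to 7521026, plus strand, sharing reads with an overlapping row), was at 17.1 and 20.5 CPM in ERAA, 6.19 and 5.87 CPM in ERDD and 9.62 and 8.83 CPM in ERPHF8. The 3 groups did not overlap, and ERDD was lowest. Its log2 change was −1.56 for ERDD against ERAA (SE 0.10, adjusted p = 5.8e-06) and −0.99 for ERPHF8 against ERAA (SE 0.10, adjusted p = 0.00015). ZNF419 of cluster 16 was at 12.9 and 12.7 CPM in ERAA, 5.80 and 5.50 CPM in ERDD and 10.3 and 9.19 CPM in ERPHF8 (ERDD against ERAA −1.11, SE 0.08, adjusted p = 1.2e-05). ZNF536 fell by 1.11 (adjusted p = 3.6e-05). The largest rises in ERDD against ERAA were ZNF730 (0.49, adjusted p = 0.0025), ZNF724P (0.45, adjusted p = 0.013, lost without ERDD library 1) and ZNF473 (0.44, adjusted p = 0.00029).

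ERPHF8 against ERAA gave 38 members higher (17.4%) and 18 lower (8.26%), both under the background of 29.7% and 24.1%, with a median of 0.06. The 56 calls became 93 without ERAA library 1 (78 higher, 15 lower), 31 without ERPHF8 library 1 (19 and 12) and 18 without ERPHF8 library 2 (9 and 9). Without ERAA library 2 there were 54 (24 higher, 30 lower), so the excess of higher calls was lost in the last 2 of these fits. Cluster 5 had 11 higher and 0 lower of 29 (median 0.19), and cluster 15 had 12 and 4 of 34 (median 0.13). ZNF730 was at 14.2 and 11.6 CPM in ERAA, 19 and 17.4 CPM in ERDD and 22.7 and 23.7 CPM in ERPHF8. The groups followed that order without overlap, with a log2 change of 0.83 for ERPHF8 against ERAA (SE 0.10, adjusted p = 0.00031). ZNF724P rose by 0.77 (adjusted p = 0.0016) and ZNF486 by 0.77 (adjusted p = 0.0094, lost without ERPHF8 library 2). ZNF575, which overlaps ETHE1, fell by 0.64 (adjusted p = 0.00021) and ZNF579 by 0.48 (adjusted p = 0.0012).

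PHF8 against F279S and ERDD against ERAA share no library. Of the 53 members higher in the first, 23 were lower in the second (43.4% of the 53, 20% of the 115 lower there) and 6 were higher in both. The 43.4% lies below the 52.8% of all 218 members that were lower in the second. Over the 218 members, which share the libraries of each comparison, the 2 changes had a Pearson's r of 0.00039 and a Spearman's rho of −0.034. Over all genes in both tests, 433 of 1653 higher in the first were lower in the second (26.2%) and 638 were higher in both. Among the 23 members higher in the first and lower in the second were ZNF880 and ZNF610, both chosen after their values were seen. ZNF880 was at 3.02 and 2.83 CPM in ERAA and 1.36 and 1.31 CPM in ERDD, and ZNF610 at 7.42 and 5.97 CPM against 3.95 and 4.24 CPM. ZNF257 was at 2.06 and 1.88 CPM in ERAA, 1.97 and 1.77 CPM in ERDD and 2.14 and 2.03 CPM in ERPHF8, where ERAA overlaps both other groups.

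Of 33 other genes of the KRAB corepressor and H3K9 methylation machinery that were tested, 2 were higher and 3 lower in PHF8 against wt, where 12.7% of all genes were higher and 8.28% lower. In F279S against wt 0 passed, as against 0.0146% higher and 0% lower of all genes. In PHF8 against F279S 3 were higher and 1 lower, as against 12.2% and 7.92% of all genes. ATF7IP, the partner of SETDB1, was at 41.3 ± 1.52 CPM in wt and 60.7 ± 13.8 CPM in PHF8 (SD, n = 4; log2 change 0.52, adjusted p = 0.023). Its log2 change was 0.81 in libraries 1 and 2 and 0.24 in libraries 3 and 4. PHF2, a relative of PHF8, fell from 51.6 ± 2.27 to 34.1 ± 1.95 CPM (log2 change −0.59, adjusted p = 4.1e-05). In the second experiment 9 were higher and 5 lower in ERDD against ERAA (34.8% and 33.3% of all genes), 20 and 0 in ERPHF8 against ERAA (29.7% and 24.1%), and 5 and 15 in ERDD against ERPHF8 (24.8% and 28%). TRIM28 was at 553 ± 7.58 CPM in ERDD, 380 ± 12 CPM in ERAA and 444 ± 6.03 CPM in ERPHF8 (SD, n = 2), a rise of 0.54 against ERAA (adjusted p = 1.3e-05) and of 0.32 against ERPHF8 (adjusted p = 0.00062). SETDB2 was lower in ERDD than in ERAA by 0.59 (adjusted p = 0.00016), and DNMT1, the maintenance DNA methyltransferase, higher by 0.90 (adjusted p = 6.8e-06).

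The members have AT-rich transcripts. The median share of G and C in the longest coding transcript (GENCODE v29, found for 215 of 218) was 42.4%, against 45.2% for other ZNF genes, 60.3% for other genes of chromosome 19 and 48.9% for all genes at 1 CPM or more. It was lowest in cluster 5 (37.3%) and 47.2% in cluster 16. Across the 215 members, which share libraries and depth, the change in PHF8 against F279S fell as this share rose (Spearman's rho −0.461), and so it did across all 12906 genes with a transcript (−0.277). The members called higher there had a median of 40.4% and those called lower 65.9%. Below 42% (limits chosen after the data were seen), 34 of 97 members were higher and 0 lower, with a median change of 0.34, and 18.3% of 2955 other genes were higher and 4.13% lower, with a median of 0.08. From 50% upward, 1 of 31 members was higher and 4 lower (median −0.05), as against 7.05% and 11.4% of 6071 other genes (median −0.05). In ERDD against ERPHF8 the sign was the opposite (rho 0.334 over 215 members, 0.211 over 13051 genes). Below 42%, 64 of 97 members were lower there, and 36.7% of 2996 other genes. What part the base composition has in the changes was not tested.

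**Figure D5:**
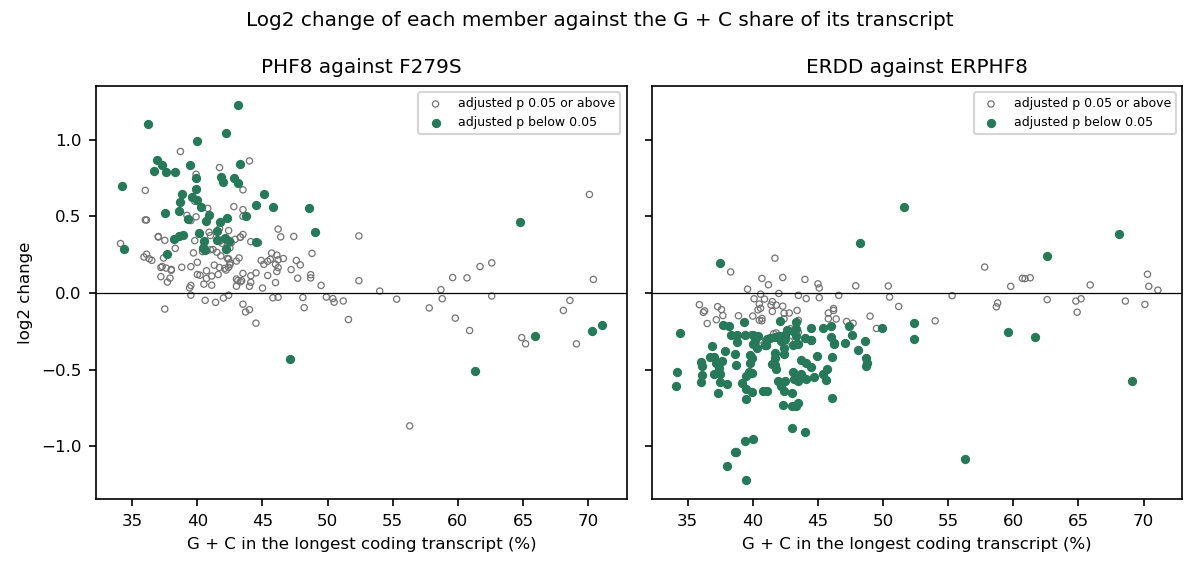
Log2 change of each member (y axis) against the share of G and C in its longest coding transcript (x axis, percent), for PHF8 against F279S and for ERDD against ERPHF8; filled points have an adjusted p below 0.05. Of the members under 42%, 34 were higher and 0 lower on the left, and 64 were lower on the right.

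Members of both promoter kinds were called higher more often than lower in PHF8 against F279S. Of the 51 members with CCAATCAG, 15 were higher and 1 lower (median 0.32), as were 8 and 2 of the 41 with CCGGAAGT (median 0.17) and 21 and 2 of the 101 with neither (median 0.22), where 12.2% of all genes were higher and 7.92% lower. In ERDD against ERPHF8, 32 of 51, 25 of 41 and 56 of 101 were lower, as against 28% of all genes. The median transcript share of G and C was 40.1%, 44.1% and 42.5% in these 3 sets, and a difference between them was not tested.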

How the data were processed

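RNA of THP-1 libraries, enriched for poly(A), was sequenced on an Illumina instrument, per the labels' protocols. The authors deposited RPKM values per gene for each of 18 libraries; the values are per kilobase of the whole gene span, introns included. STAR 2.7.0c, SAMtools 1.9, DESeq2 and the build hg38 are named in the submitters' processing notes; their roles, and how reads were counted, no label or header states. RPKM times span gave CPM, and 100% of values were whole multiples of 1 read (tolerance 0.001), so reads and depth were recovered.

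limma 3.58.1 (trend, R 4.3.3) was fitted to log2(CPM + 0.5) within each experiment, on 13683 genes (at least 1 CPM in at least 4 of 12 libraries) and 13831 genes (2 of 6 libraries), with Benjamini-Hochberg adjustment over all genes; fold changes of low genes are understated on this scale. The RPKM values cannot be given to a count model as such; voom on recovered reads was an alternative. Same-numbered libraries of the first experiment deviated together (correlations 0.484 to 0.908 in all 12 pairs), so the replicate block is given beside the counts it moves. The best-correlated library of another group had the same number in 7 of 12 cases. F279S library 1, for example, had 0.819 with wt library 2 and 0.809 with wt library 1. These correlations thus do not show that numbers pair single libraries. In the second experiment those of same-numbered libraries ranged from -0.336 to 0.104. The step was tested on data simulated without library pairs, so that test does not cover the spread between pairs in the first experiment. Members and lists were chosen with earlier results of these data known. The 34 named members are the 6 largest rises and falls in the 2 PHF8 comparisons and the 3 largest in the other 4, among called members whose groups do not overlap, the member of highest RPKM in each cluster of 5 or more, and ZNF274. ZNF491 and ZNF625 are named for the threshold only and are not counted among the 34.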

Additional observations from a re-analysis of the deposited data

Results flagged for a closer look

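Among 102 sets of 4 libraries (34 named members in 3 groups), 4 had 1 library far from the other 3, where chance gives about 1 in 20. ZNF761 was at 57.5 CPM in wt library 3, with the nearest other library at 46.4 CPM. ZNF700 was at 70.9 CPM in PHF8 library 3, with the nearest at 53.6 CPM. ZNF324B was at 9.22 CPM in F279S library 4, with the nearest at 7.8 CPM, and ZNF787 at 74.8 CPM in F279S library 2, with the nearest at 63.4 CPM.

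By the interaction test in limma adjusted over all genes, the change differed between library pairs in 63 of 218 members for PHF8 against wt. For PHF8 against F279S it differed in 51. Of all genes, 30.5% and 21.8% passed. Among these members 61 and 50 had the larger value in libraries 1 and 2, a direction in which 14.4% and 10.1% of all genes passed.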

How the results depend on the processing

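No named change reversed. Of 548 values of 41 named changes under the alternatives, 484 kept direction and call and 64, in 13 changes, kept direction only. The 41 were chosen among changes whose groups do not overlap, so leaving out libraries could not reverse their direction. Counts of members and of all genes follow in this order. For PHF8 against wt they were 84 and 5670 with the replicate block, and 78 and 5595 with the library pair as a factor. They were 135 and 7029 in libraries 1 and 2. In libraries 3 and 4, 34 members were higher and 23 lower, and 5765 genes passed. For PHF8 against F279S the counts were 115 and 5620 with the block, 115 and 5565 with the pair, and 154 and 7366 in libraries 1 and 2. In libraries 3 and 4, 41 members were higher and 9 lower, and 4821 genes passed. For F279S against wt the counts were 1 and 298 with the block and also with the pair, and 30 and 1943 in libraries 1 and 2. In that comparison 12 genes passed in libraries 3 and 4, and 4 genes under quantile normalization. Without a filter 36 members passed in ERPHF8 against ERAA, 61.1% of them higher, as against 54.2% of all genes that passed. Of the 123 members that overlap no other row, 23, 32, 66, 35 and 70 passed in PHF8 against wt, PHF8 against F279S, ERDD against ERAA, ERPHF8 against ERAA and ERDD against ERPHF8. Leaving out 1 library gave 27 to 54 members and 2215 to 2612 genes, 30 to 61 and 2070 to 2448, 83 to 151 and 7458 to 10108, 18 to 93 and 4863 to 8756, and 72 to 94 and 4306 to 5204 for these 5, and 0 members and 2 genes for F279S against wt. A gap of 2 Mb gave 8 clusters and one of 0.5 Mb 20. In the second experiment numbers do not pair libraries. The replicate block gave 11 members higher and 109 lower in ERDD against ERAA (33.5% and 32.1% of all genes). It gave 31 and 14 in ERPHF8 against ERAA (27.4% and 22.5%), and 5 and 124 in ERDD against ERPHF8 (23.2% and 26%). With crossed numbers, in the same order, 9.23%, 67.8% and 4.35% of the members called were higher. Of all genes that passed, 50.5%, 56% and 45.7% were. The causes were not tested. Members near 1 CPM rest on few reads in the shallower libraries, which limits their precision.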
